A study of Mus musculus with 15 samples.

Results

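In the amygdala of WT mice, 410 of 24132 H3K4me3 summits lay at the starts of antisense and related noncoding genes. They were away from the starts of protein-coding genes and long intergenic noncoding RNAs. H3K4me3 is trimethylation of lysine 4 on histone H3, a modification of nucleosomes around active transcription start sites (TSSs). A summit is the single base at which a peak of H3K4me3 reads is highest. Members were summits within 1 kb of a TSS of a gene that GENCODE M21 types as antisense, processed_transcript, sense_intronic or bidirectional_promoter_lncRNA, with no TSS of a protein-coding gene or a lincRNA (long intergenic noncoding RNA) within 1 kb. They made up 1.7% of all summits (95% Wilson interval 1.54 to 1.87%, which, like all intervals here, covers counting error only). By the nearest noncoding TSS the 410 summits belonged to 373 genes. Starts of other gene types did not exclude a summit, and 368 summits remained when they did. With only the 5′ end of each gene as TSS there were 561 genes, and with an exclusion distance of 5 kb there were 248 summits of 224 genes. Of the summits, 226 were at antisense genes, 171 at processed transcripts, 10 at sense intronic genes and 3 at bidirectional promoter lncRNAs.

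The series compares H3K4me3 between mice with changes in Kmt2a, which encodes a writer of H3K4 methylation, and Kdm5c, which encodes an eraser. Chromatin was taken from the amygdala of adult male mice of the F1 generation 129xB6, with 2 WT mice and 3 mice each of Kmt2a-HET, Kdm5c-KO and DM, the Kmt2a-Kdm5c double mutant, and 1 input sample per genotype. Nuclei were isolated from the dissected tissue, and no sorting by cell type is stated. Only the WT list was used here, and it pools both WT mice, so no spread between replicates exists and no test between groups of summits was made. The mutant samples were not analysed here.

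The brain origin of the labelled tissue was checked on protein-coding promoters. The markers are of general brain cell types and do not tell the amygdala from other brain regions. All 8 neuronal markers looked up had a promoter summit, with scores of 104.8 to 266.8. Glial and vascular markers were present too, at 4 of 4 astrocyte, 4 of 5 oligodendrocyte, 4 of 4 microglial and 3 of 3 endothelial genes, and none of 5 genes of other tissues had a summit. A summit of a noncoding gene therefore cannot be assigned to a cell type from these data.

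Antisense genes are transcribed from the strand opposite to another gene and overlap it. Processed transcripts are spliced or processed RNAs without a known open reading frame, and the type holds many hosts of small RNAs, whose introns or exons carry small nucleolar RNAs (snoRNAs) or microRNAs. Sense intronic genes lie in an intron of another gene on its own strand. Bidirectional promoter lncRNAs start next to a coding gene and run away from it, so the rule keeps few of them. Several long antisense RNAs are known for silencing neighbouring genes on the same chromosome, as in imprinting, where a gene is active on the copy from one parent only.

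Promoter sequences of 7 members are shown because they span the range of scores and CpG contents that the results below turn on. Each runs 5′ to 3′ on the strand of the noncoding gene, from 250 bases before its TSS to 50 bases from the TSS on, in build GRCm38 (mm10), read from the RefSeq copy of that assembly. Where a gene has several TSSs, the TSS nearest its highest-scoring summit was used. Capitals mark CpG dinucleotides. Snhg8 had the highest score of all members, Gm26871 spans the gene of miR-137, Kcnq1ot1 is imprinted, Sox2ot and Dlx6os1 lie at developmental transcription factor genes, Tsix lies in the X inactivation centre and C030013C21Rik had the lowest score.
Snhg8, chr3:123508281-123508580, minus strand: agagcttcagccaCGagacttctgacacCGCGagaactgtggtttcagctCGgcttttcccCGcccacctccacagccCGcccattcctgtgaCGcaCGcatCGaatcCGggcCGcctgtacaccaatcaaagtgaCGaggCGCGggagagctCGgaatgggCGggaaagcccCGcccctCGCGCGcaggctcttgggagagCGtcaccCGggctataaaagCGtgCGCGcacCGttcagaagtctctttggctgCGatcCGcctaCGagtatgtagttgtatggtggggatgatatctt
Gm26871, chr3:118430074-118430373, plus strand: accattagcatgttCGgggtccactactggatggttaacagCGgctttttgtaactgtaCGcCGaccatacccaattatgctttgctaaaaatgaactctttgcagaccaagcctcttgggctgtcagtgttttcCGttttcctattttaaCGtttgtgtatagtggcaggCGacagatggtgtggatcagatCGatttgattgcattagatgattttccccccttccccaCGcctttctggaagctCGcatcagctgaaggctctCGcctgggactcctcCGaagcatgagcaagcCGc
Kcnq1ot1, chr7:143296500-143296799, minus strand: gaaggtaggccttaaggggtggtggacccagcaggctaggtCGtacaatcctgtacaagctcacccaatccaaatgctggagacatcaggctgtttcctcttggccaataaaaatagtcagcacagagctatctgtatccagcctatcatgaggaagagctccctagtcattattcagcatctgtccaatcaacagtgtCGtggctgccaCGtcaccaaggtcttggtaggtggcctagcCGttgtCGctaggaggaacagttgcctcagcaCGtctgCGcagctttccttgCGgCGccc
Sox2ot, chr3:34638254-34638553, plus strand: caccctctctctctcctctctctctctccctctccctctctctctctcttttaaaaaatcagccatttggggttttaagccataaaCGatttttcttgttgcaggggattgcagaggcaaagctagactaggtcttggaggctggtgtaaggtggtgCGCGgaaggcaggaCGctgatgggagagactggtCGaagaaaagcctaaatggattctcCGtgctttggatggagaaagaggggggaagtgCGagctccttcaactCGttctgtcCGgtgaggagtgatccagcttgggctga
Dlx6os1, chr6:6861542-6861841, minus strand: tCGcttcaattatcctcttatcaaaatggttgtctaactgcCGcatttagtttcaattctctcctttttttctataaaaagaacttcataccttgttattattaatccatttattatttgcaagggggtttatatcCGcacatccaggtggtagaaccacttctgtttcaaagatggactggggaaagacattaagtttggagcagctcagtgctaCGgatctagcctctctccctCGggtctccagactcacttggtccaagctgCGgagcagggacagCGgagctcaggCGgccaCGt
Tsix, chrX:103447472-103447771, plus strand: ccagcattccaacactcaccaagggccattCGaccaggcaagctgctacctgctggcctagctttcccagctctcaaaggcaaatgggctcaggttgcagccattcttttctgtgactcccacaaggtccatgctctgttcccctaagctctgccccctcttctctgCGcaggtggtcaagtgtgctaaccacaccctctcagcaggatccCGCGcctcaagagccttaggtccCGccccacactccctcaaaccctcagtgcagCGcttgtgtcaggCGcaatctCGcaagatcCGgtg
C030013C21Rik, chr11:80509057-80509356, minus strand: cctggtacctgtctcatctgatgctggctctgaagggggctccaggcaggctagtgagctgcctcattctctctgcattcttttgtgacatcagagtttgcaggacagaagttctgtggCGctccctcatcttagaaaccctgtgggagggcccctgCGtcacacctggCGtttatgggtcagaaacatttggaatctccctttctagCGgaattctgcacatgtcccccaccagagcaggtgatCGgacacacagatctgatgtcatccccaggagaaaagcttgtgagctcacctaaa
The Snhg8 window held 29 CpG dinucleotides, against 13 in Gm26871, 9 each in Kcnq1ot1, Sox2ot, Dlx6os1 and Tsix, and 5 in C030013C21Rik. The TATAAA letters began 36 bases before the Snhg8 TSS used, on its own strand. That TSS, at 123508330, was not the 5′ end of the annotated gene, at 123508404, so these letters lie inside the gene. The window of Kcnq1ot1 held CCAAT at 3 places on its own strand, beginning 186, 146 and 65 bases before the TSS. In Tsix, GGGCGG was found once, on the opposite strand, and in Sox2ot and C030013C21Rik none of the 5 motifs searched was found.

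The microRNAs that lie inside member genes on the same strand are shown next, because they are known RNAs within often unnamed noncoding genes. Whether a marked start produces the microRNA was not tested. MicroRNAs are short RNAs that pair with messenger RNAs mainly through the seed, bases 2 to 8, which is in capitals. Members held 22 microRNA genes in 14 host genes, with 40 entries of mature sequences in the RefSeq table. The 12 shown are grouped by seed, and miR-125b-5p and miR-137-3p stand alone.
mmu-miR-132-3p: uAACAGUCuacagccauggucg
mmu-miR-212-3p: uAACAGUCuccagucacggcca
mmu-miR-15a-5p: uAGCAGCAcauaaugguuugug
mmu-miR-16-5p: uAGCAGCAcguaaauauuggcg
mmu-miR-181a-5p: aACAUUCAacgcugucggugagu
mmu-miR-181b-5p: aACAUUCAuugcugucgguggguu
mmu-miR-99a-5p: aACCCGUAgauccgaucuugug
mmu-miR-100-5p: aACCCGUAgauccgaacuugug
mmu-let-7b-5p: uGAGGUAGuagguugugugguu
mmu-let-7c-5p: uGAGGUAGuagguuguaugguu
mmu-miR-125b-5p: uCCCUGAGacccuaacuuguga
mmu-miR-137-3p: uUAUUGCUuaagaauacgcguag
The pairs miR-132-3p and miR-212-3p, miR-15a-5p and miR-16-5p, miR-181a-5p and miR-181b-5p, miR-99a-5p and miR-100-5p, and let-7b-5p and let-7c-5p each share 1 seed. MiR-99a-5p and miR-100-5p lie in different hosts on different chromosomes, Mir99ahg and 3110039I08Rik. MiR-125b-5p is encoded in both of these clusters.

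Member summits carried intermediate scores. The score was read as −log10 of the q-value of the peak caller, so that higher means stronger evidence of enrichment over input, and it depends on depth as well as on the amount of the mark. The median over members was 35.99 (95% interval 28.66 to 44.48), the quartiles were 9.924 and 127.9, and the range was 1.961 to 317.4. With only gene 5′ ends as TSSs the median was 81.41. Protein-coding promoter summits had a median of 172.5 (170.7 to 174.7, n = 15909). Summits at lincRNA starts away from coding starts had a median of 31.4 (26.11 to 41.84, n = 557), and summits away from every annotated TSS had a median of 11.29 (11.08 to 12.09, n = 6877). The interval of members overlapped that of lincRNA promoters and did not overlap those of coding promoters or of summits away from every TSS.

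A member drawn at random scored higher than a coding promoter summit in 25.6% of pairs, than a lincRNA promoter summit in 50.8%, and than a summit away from every TSS in 67.2%. The median of the whole list was 102.3. It was reached by 128 members (31.2%, 26.9 to 35.9%), against 69.7% of coding promoter summits, 26.8% of lincRNA promoter summits and 9.35% of summits away from every TSS. Members thus ranged from barely called to among the strongest promoters. Scores under 10 made up 25.6% of members and 7.25% of coding promoter summits, and scores above 150 made up 20.5% and 57.8%.

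**Figure D1:**
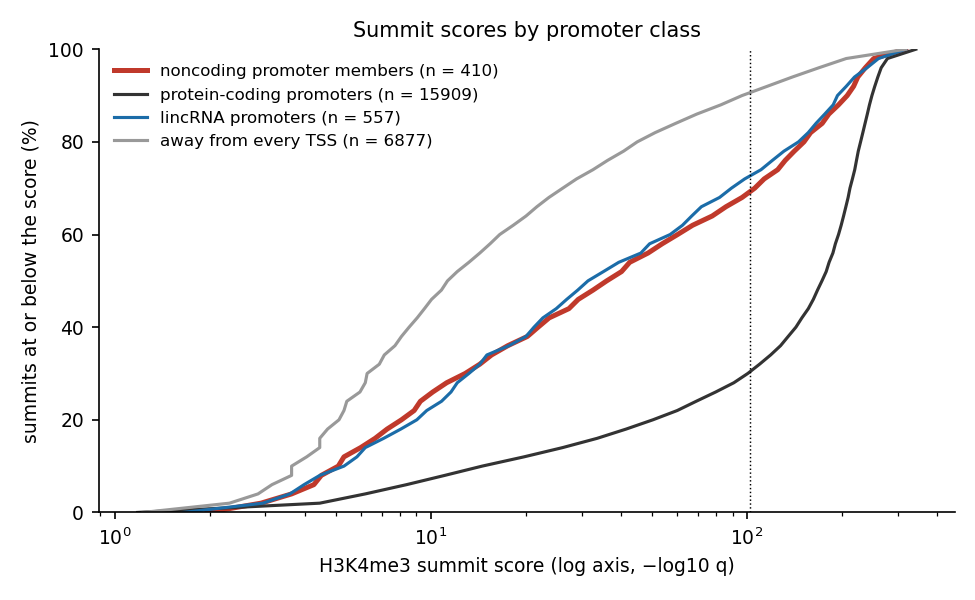
Share of summits (%) at or below each H3K4me3 summit score (log axis, −log10 q) for noncoding promoter members, protein-coding promoters, lincRNA promoters and summits away from every TSS, with the list median of 102.3 as a dotted line. The member curve runs along the lincRNA curve, between the curve of summits away from every TSS and that of coding promoters.

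Processed transcripts had a higher median score than antisense genes, but the intervals overlapped slightly and no test was made. These types also differ in how often they lie inside coding genes, as given below. How often a start was marked differed between antisense genes, processed transcripts and sense intronic genes. Processed transcripts had a median score of 52.07 (35.99 to 85.94, n = 171) and antisense genes a median of 27.43 (20.57 to 40, n = 226). The list median was reached by 38.6% (31.6 to 46.1%) of summits at processed transcripts and by 26.1% (20.8 to 32.2%) at antisense genes. The 10 sense intronic summits had a median of 24.89 with a range of 1.961 to 249.5, and the 3 bidirectional ones scored 4.202, 7.011 and 21.91. The last 2 types are too few to place.

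Of 2831 genes of these types with at least 1 TSS more than 1 kb from any coding or lincRNA TSS, 361 had a TSS within 1 kb of a member summit (12.8%, 11.6 to 14%), or 4.38% when only summits at or above the list median were counted. The share was 28% (24.3 to 32%) of 521 processed transcripts, 10.3% (9 to 11.7%) of 1989 antisense genes and 2.95% (1.56 to 5.51%) of 305 sense intronic genes. For lincRNAs, whose summits were excluded only by coding starts, it was 10.7% (9.86 to 11.6%) of 4960 genes. Of 21755 protein-coding genes 65.2% had a promoter summit, but this share leaves out no summit or gene for a nearby start. Counted in the same way, without exclusion, a summit was near 36.3% of all 4263 genes of these types. It was near 52.7% of 788 processed transcripts and 15.2% of 5305 lincRNAs. Most summits near a noncoding start of these types could not be members. Of 1706 such summits, 1296 (76%) also had a coding or lincRNA TSS within 1 kb, 1278 of them a coding one, and their mark cannot be told apart from that of the neighbour.

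The 5 antisense genes with the highest summits were 1600020E01Rik at 299.5, Gm16897 at 290.9, Snhg7os at 267, and Trmt61b and Zbtb11os1, both at 251.5. They do not all stand at their own start. The summit of 1600020E01Rik (chr6:86525289) lay 958 bp upstream of its TSS, in an exon of Pcbp1, which encodes an RNA-binding protein, and 1032 bp from the GENCODE start of Pcbp1. The summit of Gm16897 (chr1:194976881) lay 79 bp downstream of its TSS and 37886 bp from the nearest coding start, that of Cd34. The Snhg7os summit was 373 bp upstream of its TSS, the Zbtb11os1 summit was 269 bp upstream, and the Trmt61b summit was 225 bp downstream.

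Among processed transcripts the highest were Snhg8 at 317.4, 1810026B05Rik at 303.7, 2410006H16Rik at 301.8, 1110038B12Rik at 290.1 and 0610009E02Rik at 252.2. Their summits lay 199, 463, 409, 177 and 330 bp downstream of the TSS, all on the transcribed side. 1810026B05Rik overlaps Chd2, a chromatin remodeller gene, on the same strand, and has another member summit of 154.4 that is 1463 bp away. Among sense intronic genes Gm28119 scored 249.5, Peg13 236.1, Gm47920 198.4, Gm16155 78.06 and Gm46409 32.57. The bidirectional ones were Gm20501 at 21.91, E230013L22Rik at 7.011 and Dio3os at 4.202. The 3 lowest members were C030013C21Rik at 1.961, Gm42303 at 1.982 and Gm15511 at 2.452.

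Summits sat mostly just downstream of the noncoding start. Of 410 summits, 303 (73.9%, 69.4 to 77.9%) were downstream of the nearest noncoding TSS, with a median position 142 bp downstream (118 to 160) and quartiles of -13 and 262.8 bp. Coding promoter summits were downstream in 79.6% (79 to 80.2%) at a median of 170 bp, and lincRNA promoter summits in 74.3% (70.5 to 77.8%) at 149 bp. Within 300 bp on either side lay 64.4% of members, 64.5% of coding promoter summits and 63.2% of lincRNA promoter summits. The most populated 100 bp was that from 100 to 200 bp downstream, with 94 summits, followed by 0 to 100 bp with 63 and 200 to 300 bp with 56. No interval of 100 bp upstream held more than 20. Against the gene model, 166 members (40.5%) were in the first exon of their own gene, 146 (35.6%) in an intron, 12 in another exon and 85 (20.7%) upstream of the gene, and 1, at Gm15202, lay past the 3′ end of its gene.

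**Figure D2:**
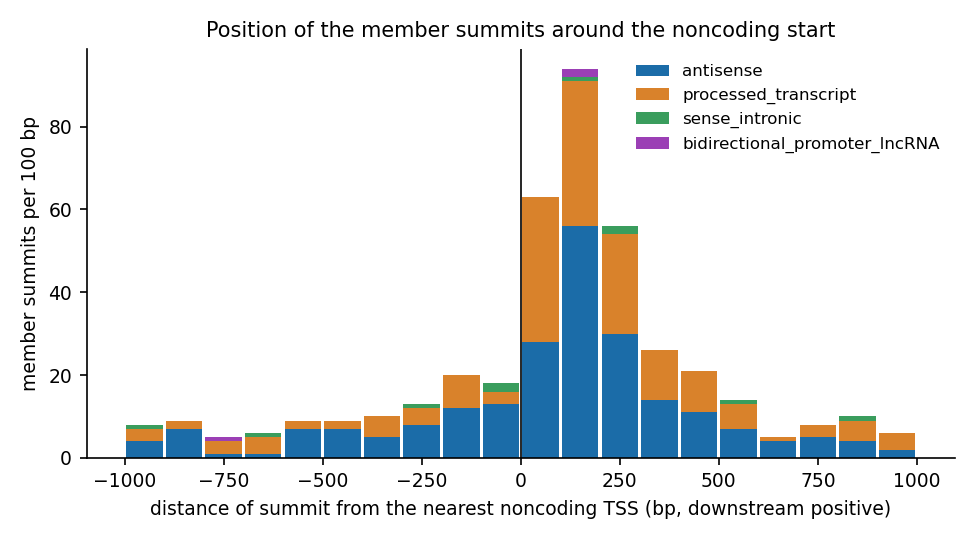
Number of member summits per 100 bp by distance from the nearest noncoding TSS (bp, downstream positive), stacked by gene type. The highest bar, with 94 summits, is 100 to 200 bp downstream, and 80 summits lie 500 to 1000 bp away on either side.

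SnoRNA hosts were the strongest group among the lists looked up. These genes carry snoRNAs, guides for chemical modification of other RNAs, in their introns. Of 18 listed host genes, 11 were of the types studied and 5 were members. Snhg8 (chr3:123508131) scored 317.4, Dancr 227.9, Snhg5 216.2, Snhg17 210.2 and Snhg15 156.1, all above the list median. Another 11 hosts had a summit that fell in another class because a coding or lincRNA start was near or the host itself is of another type, with Gas5 at 288.2 and Snhg3 at 299.8. Snhg14 and Snhg18 had no summit within 1 kb of a start. The nearest coding TSS was 51998 bp from the Snhg8 summit and 24941 bp from the Dancr summit, while for Snhg15 it was 7622 bp away, at Myo1g, which had no promoter summit.

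Of 9 imprinted noncoding genes, 6 were of the types studied and 4 were members. Peg13, transcribed from an intron of Trappc9 in the brain, scored 236.1 (chr15:72809435), 889 bp downstream of its start. Kcnq1ot1, an antisense RNA that silences genes around Kcnq1 on the paternal chromosome, scored 220.1 (chr7:143296254), 295 bp downstream of its start. Nespas, antisense at the Gnas locus, scored 93.31, and Airn, antisense to Igf2r, scored 63.79. Peg13 and Kcnq1ot1 were above the list median, and Nespas and Airn were below it. Snhg14 and Rian, also of these types, had no summit within 1 kb of a start, and neither had the lincRNAs H19 and Mirg. Meg3, a lincRNA, had a summit of 198.4. The list does not tell the parental copies apart.

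Each of the 4 imprinted members overlaps a coding gene. Kcnq1ot1 at 220.1 stood within Kcnq1, a potassium channel gene whose best promoter summit scored 2.628. Airn at 63.79 stood in an intron of Igf2r, the gene of a receptor for insulin-like growth factor 2, whose best promoter summit scored 145.4. Nespas at 93.31 stood in an intron of Gnas, the gene of a stimulatory G protein subunit, with a best promoter summit of 169.6. Peg13 at 236.1 stood in Trappc9 with 241.3. Only the Kcnq1ot1 summit was above the promoter of its overlapped gene among these 4.

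In the X inactivation centre, Tsix, the antisense partner of Xist, scored 14.45 (chrX:103447944), 222 bp downstream of its start. The animals were male, and Xist, which is expressed from the inactive X of females, had no summit within 1 kb. The lincRNAs Jpx and Ftx of the same region had summits of 178 and 154.4. Tsix was the lowest of these 3 marked genes.

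MicroRNA hosts were found mainly by position rather than by name. Of 10 genes with host symbols, 3 were of the types studied and 1, Mir99ahg, was a member. By position 14 member genes contained a microRNA gene on the same strand. Their best summits had a median of 135.2 (52.07 to 223.3, range 4.202 to 249.5), and 9 of the 14 reached the list median. Over all 373 member genes the best summit had a median of 40.69 (32.57 to 53.1), and 33.8% reached it. The host group is small, and no test was made.

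Gm26871, which contains miR-137, a microRNA known from neuronal maturation, scored 223.3 (chr3:118430540) at 3317 bp before the hairpin. Gm4258, the host of miR-181a-1 and miR-181b-1, scored 243.8, with the hairpins 67709 and 67893 bp further on. In 1700016P03Rik, the host of miR-212 and miR-132, which are induced by neuronal activity, the summit of 139 lay 433 bp before miR-212 and 727 bp before miR-132. Dleu2, the host of miR-15a and miR-16-1, scored 168.8, with the hairpins 50145 and 50269 bp further on. Lncppara, which contains let-7b and let-7c-2, scored 131.4.

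The cluster of miR-100, let-7a-2 and miR-125b-1 lay in 3110039I08Rik, and miR-125b-1 also lay in Gm28119. The start of 3110039I08Rik scored 93.49 (chr9:41376573), and its summit was 154852 bp before miR-100 and 205353 bp before miR-125b-1. The sense intronic gene Gm28119 had a summit of 249.5 (chr9:41581868), 40 bp upstream of its TSS and 58 bp before the miR-125b-1 hairpin. The summit nearest the microRNA was the higher. In the paralogous cluster, Mir99ahg had 5 summits over 357632 bp, with scores of 89.18, 3.628, 124.4, 3.628 and 110.7 from the first to the last. The last lay 4203 bp before miR-99a and 4924 bp before let-7c-1.

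Lower among the hosts were D030055H07Rik, which contains miR-135a-1, at 56.09, Gm6145 at 52.07, 2610307P16Rik at 26.11 and Dio3os, which contains miR-1247, at 4.202. A330076H08Rik, a host of miR-344 genes, scored 143.7 with a ratio of observed to expected CpG of 0.156, the lowest, together with Gm15894, among members at or above the list median. The Sox2ot summit of 151.3 lay just past the miR-1897 hairpin. At A330076H08Rik and Dio3os the summit also lay past a hairpin, by 210 bp for miR-344g and 261 bp for miR-1247, counted from the 5′ end of the hairpin. The TSS nearest the summit lay past the miR-1247 hairpin at Dio3os. It lay inside the miR-1897 hairpin at Sox2ot and inside the miR-344g hairpin at A330076H08Rik.

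Opposite-strand and overlapping genes of developmental transcription factors were marked at some loci. Of 20 annotated entries of this list, 13 were of the types studied and 4 genes were members: Sox2ot, Dlx6os1, Zfhx2os and Six3os1. Another 6 had a summit of another class. These were Zeb2os with 179.8, Rmst with 175.6, Pantr1 with 140.1, Hotairm1 with 64.62, Foxd2os with 12.02 and Dlx1as with 9.361. There were 10 entries without a summit within 1 kb, among them Nkx2-2os, Emx2os, Pax6os1, Evx1os and Hoxa11os. Sox2ot, which spans Sox2, a gene of neural progenitors and glia, had 6 member summits over 560609 bp. From first to last they scored 59.46, 29.68, 66.57, 32.57, 151.3 and 31.25, each at a different TSS. The best promoter summit of Sox2 itself scored 190.9, above all 6.

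Dlx6os1, antisense to Dlx6 in a locus of forebrain GABAergic interneurons, had summits of 125.3 and 28.8 at 9607 bp from each other, beside a best promoter summit of 162.2 for Dlx6. Zfhx2os scored 121.2 and Zfhx2 231.5. Six3os1 had summits of 96.29 and 63.16, while Six3, a forebrain patterning gene, had no summit within 1 kb of its GENCODE starts. The Six3os1 summit of 96.29 lay 1303 bp downstream of the nearest Six3 TSS, inside Six3.

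**Figure D3:**
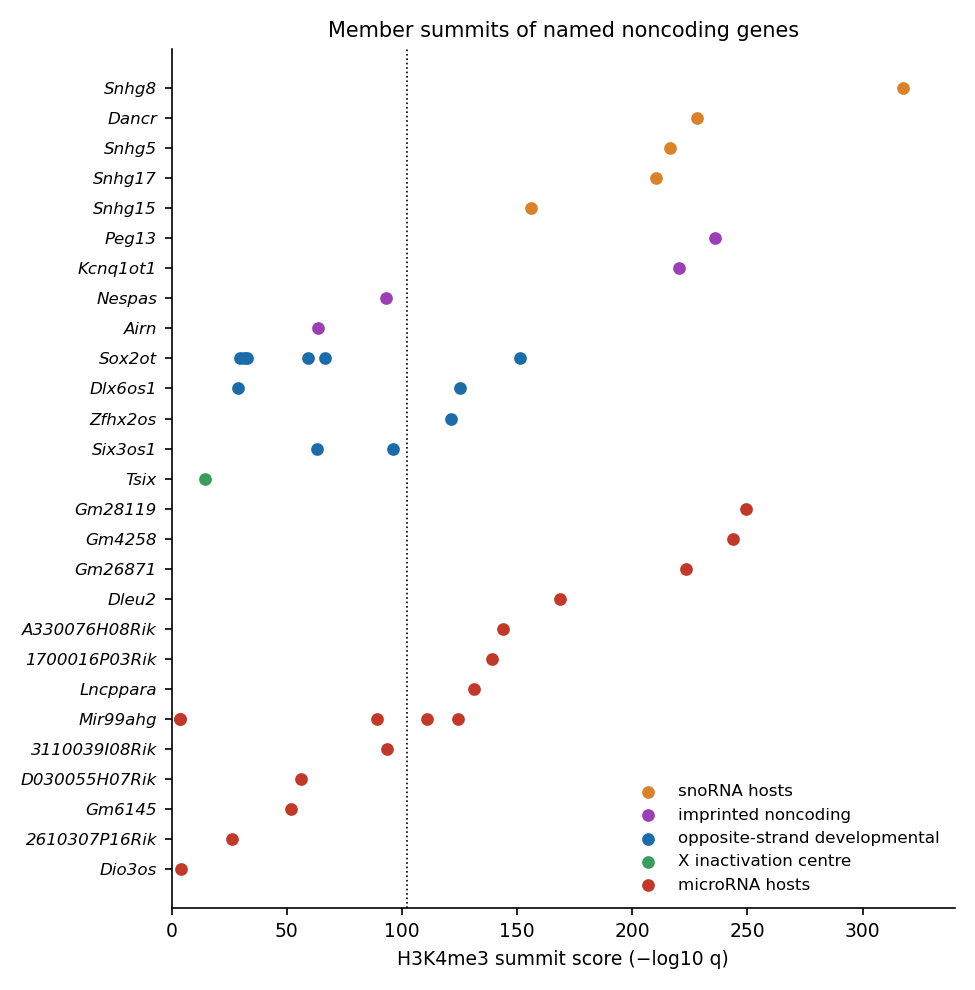
H3K4me3 summit scores (−log10 q) of member summits at named noncoding genes, 1 point per summit, coloured by list, with the list median of 102.3 as a dotted line. All 5 snoRNA hosts and 9 of the 14 microRNA hosts, counting Sox2ot, which is drawn among the developmental genes, have a summit right of the line.

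More generally, 23 member genes had a symbol ending in os or as, with or without a number after it, with 26 summits and a median score of 67.82 (18.82 to 114.1). The highest were Snhg7os at 267, Zbtb11os1 at 251.5, Pcsk2os1 at 236.7, Rab10os at 226.6 and Fbxl12os at 173.1, and the lowest were Dio3os at 4.202 and Arhgap33os at 4.955. Of the 23 genes, 16 overlapped a coding gene, 12 of these coding genes had a promoter summit of their own, and in 2 of the 12 the noncoding summit was the higher. One was Rab10os at 226.6 against 198.4 for Rab10, a membrane traffic GTPase gene, with 74001 bp between the Rab10os summit and the Rab10 start. The other was Kcnab3os at 114.1 against 65.52 for Kcnab3, a potassium channel subunit gene. Here only 1812 bp lay between the Kcnab3os summit and the nearest Kcnab3 start.

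Coding genes surrounded many members. Of the 410 summits, 197 (48%, 43.3 to 52.9%) lay inside a protein-coding gene, 179 of them in a gene on the opposite strand to the noncoding one and 18 on the same strand. Of the 197, 135 were in an intron and 62 in an exon of the coding gene. Summits inside coding genes had a median score of 23.66 (17.32 to 37.12), and those outside had a median of 47.36 (35.23 to 67.05, n = 213). These intervals overlap slightly. Exonic and intronic summits had medians of 23.96 and 23.66. Antisense genes were inside a coding gene in 67.3% (60.9 to 73%) and processed transcripts in 20.5% (15.1 to 27.1%), so gene type and location cannot be told apart in these medians.

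For 286 members the noncoding gene overlapped a coding gene, and for 232 of these the coding gene had a promoter summit. The member was above the best promoter summit of the overlapped coding genes in 47 (20.3%, 15.6 to 25.9%). Where a coding gene has several promoter summits, taking the best of them favours the coding gene in this count. These best coding summits, counted once per member, had a median of 174.1 (162.2 to 186.5). It cannot be set directly against the median over single coding promoter summits. In 132 of the 232 pairs the coding promoter reached the list median and the member did not, in 43 both did, in 38 neither did, and in 19 only the member did.

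The 19 pairs with a strong noncoding and a weak coding promoter are named here after their values were seen. All 19 noncoding genes lay on the strand opposite to the coding gene, as did those of 259 of the 286 members whose gene overlaps a coding gene. After Kcnq1ot1 the lowest coding promoters were those of Gab1 at 6.965, opposite Gm31105 at 161.8, and Cables1 at 11.08, opposite Gm6277 at 227.9. In both, and at Ccnd2, Arhgap35, Doc2b and Cacng4, the noncoding summit was 1022 to 1309 bp from a coding start, at the edge of the excluded zone, and the mark of the coding promoter cannot be told apart there. RefSeq places a Gab1 mRNA start 487 bp and an Arhgap35 mRNA start 882 bp from the summit. Other cases lay farther from a GENCODE coding start. Gm16897 at 290.9, 37886 bp away, was opposite Cd34 with 95.81. Gm36388 at 192.8, 41660 bp away, was opposite Esrrg, an orphan nuclear receptor gene, with 57.97, but RefSeq places an Esrrg mRNA start 402 bp from this summit. Gm26771 at 165.1, 23020 bp away, was opposite Sfrp2, a gene of a secreted Wnt modulator, with 33.57. Gm17276 at 201.8, 19281 bp away, was opposite Notch3 with 29.95.

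**Figure D4:**
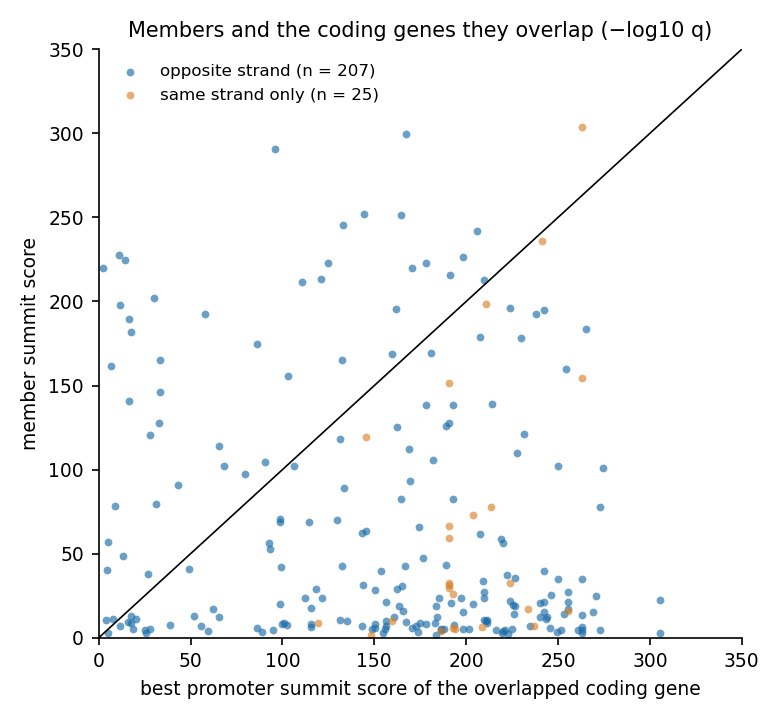
Score of each member summit against the best promoter summit score of the coding gene that its noncoding gene overlaps (both −log10 q, 232 pairs, coloured by strand), with the line of equal scores. Below the line lie 185 pairs, and 47 lie above it.

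Distance to the nearest coding start ranged from 1003 to 463762 bp. Within 1 to 2 kb lay 81 members with a median score of 44.92 (19.97 to 97.37), at 2 to 5 kb 71 with 29.91 (17.66 to 58.68), at 5 to 20 kb 111 with 42.61 (32.57 to 73.24), and beyond 20 kb 147 with 28.66 (18.82 to 42.63). The intervals of the 4 groups overlapped. Of processed transcript summits, 50.3% were beyond 20 kb, against 24.3% of antisense summits.

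The 81 members at 1 to 2 kb were of 2 kinds. For 60 the nearest coding gene had its own promoter summit, and the member had a median of 21.98 (7.8 to 79.58). For 21 the coding gene had no summit within 1 kb of its starts, and the member had a median of 158 (39.88 to 224.7). Of these 21, 17 (81%, 60 to 92.3%) lay downstream of the coding start. Among all 81, which include the 21, 54 did (66.7%, 55.9 to 76%), and the intervals overlap. The 5 highest of the 21, named after their values were seen, were 0610009E02Rik at 252.2, 1056 bp from Sec16a, Zbtb11os1 at 251.5, 1003 bp from Zbtb11, Gm30025 at 238.7 beside Dcaf5, Gm26833 at 237.7 beside Tmem178b, and Pcsk2os1 at 236.7, 1088 bp from Pcsk2, a prohormone convertase gene of neuroendocrine cells. The noncoding and the coding start at these loci cannot be told apart by the mark. In 79 of the 81, the noncoding and the coding gene were on opposite strands.

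Other annotation bears on the same point. RefSeq places the start of a protein-coding gene within 1 kb of 19 members and the start of any mRNA within 1 kb of 41. The 41 had a median of 53.58 (19.97 to 112.4) and the other 369 had 33.89 (26.24 to 42.63). At 0610009E02Rik the RefSeq start of Sec16a, a gene of secretory transport, was 21 bp from the summit, and at 1600020E01Rik the RefSeq start of Pcbp1 was 900 bp away. For 11 member genes, with 13 summits, the symbol itself is that of a protein-coding gene in RefSeq, although GENCODE M21 types the gene as noncoding. Their scores ranged from 2.841 to 230.4, with Spata5l1 at 230.4, Ptpmt1 at 183.6, Tctn2 at 174.3, Trerf1 at 165.2 and Zswim6 at 138.4 above the list median. These genes were named after their values were seen.

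CpG content went with the score. The ratio of observed to expected CpG, measured over 500 bp on each side of a summit, had a median of 0.4715 (0.4518 to 0.5022) over members, 0.681 (0.6779 to 0.6847) over coding promoter summits, 0.44 (0.4147 to 0.4572) over lincRNA promoter summits and 0.3853 (0.3807 to 0.391) away from every TSS. Windows with a ratio of at least 0.6 and over 50% GC, called CpG-rich here, made up 26.1% (22.1 to 30.6%) of members, 62.9% of coding promoters and 23.7% (20.4 to 27.4%) of lincRNA promoters. Split by CpG ratio into 5 groups of 82, members had median scores of 12.24, 16.64, 51.22, 78.89 and 110.5 from the poorest to the richest. The list median was reached by 6.1% of the poorest group and 56.1% of the richest. Spearman's rho over the 410 summits was 0.41, and over coding promoters 0.3, given as a description since all come from 1 list and share its depth.

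CpG-rich members had a median score of 109 (68.59 to 138.4, n = 107), CpG-rich lincRNA promoters 123.6 (98.7 to 147.9, n = 132) and CpG-rich coding promoters 190.9 (189.3 to 192.8, n = 10008). Outside the CpG-rich class the medians were 26.11 (20.57 to 32.57), 21.64 (17.75 to 26) and 101.7 (96.85 to 108.8). Members scored below coding promoters in both classes, with intervals that did not overlap, and their intervals overlapped those of lincRNA promoters in both.

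**Figure D5:**
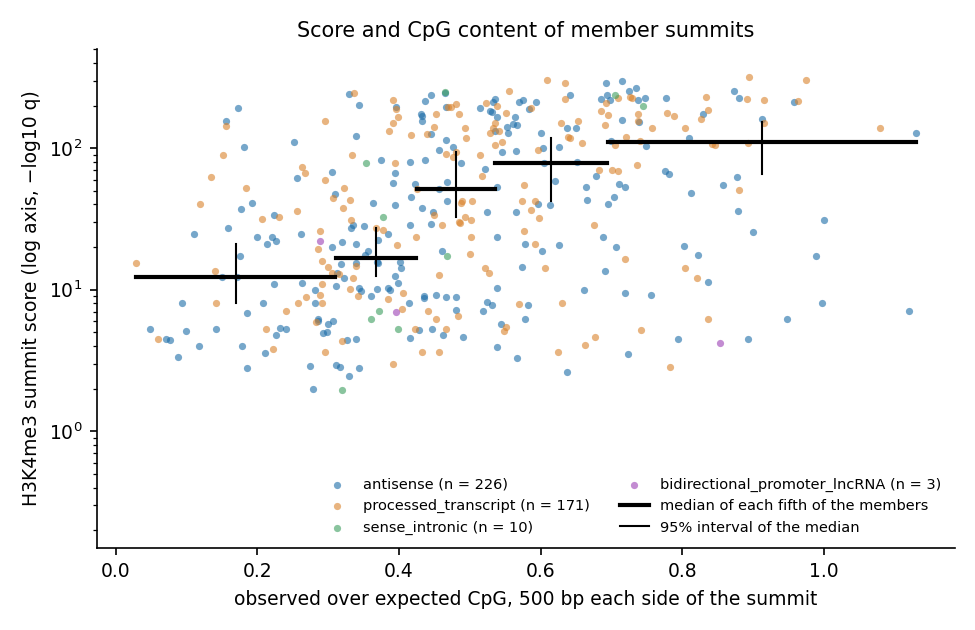
H3K4me3 summit score (log axis, −log10 q) against the ratio of observed to expected CpG around each member summit (500 bp on each side), coloured by gene type, with the median (horizontal bars) and its 95% interval (vertical lines) in 5 groups of 82 by CpG ratio. The medians go from 12.24 to 110.5 with single low scores at every CpG ratio.

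The motifs were searched on both strands from 250 bp before to 50 bp after the TSS nearest each summit, over 396 distinct member TSSs. GGGCGG, the core of a GC box, was in 32.6% (28.1 to 37.3%) of member windows, in 13% (12 to 14%) of all 4193 eligible TSSs of these types and in 63.8% (63 to 64.5%) of coding TSSs nearest a promoter summit. Among members it was in 53.1% (44.5 to 61.6%) of windows of summits at or above the list median and in 23% (18.4 to 28.4%) of the others, with 1 TSS counted in both groups. CCAAT was in 33.3% of member windows, 34.7% of eligible TSSs and 32.6% of marked coding TSSs, with overlapping intervals. TATAAA was in 9.09% (6.64 to 12.3%), 14.3% (13.3 to 15.4%) and 5.16% (4.82 to 5.52%). When its position relative to the TSS was restricted, it was found at 5 of 396 member TSSs (1.26%, 0.54 to 2.92%). The shares were then 1.67% of eligible TSSs and 0.839% of marked coding TSSs. Both lay within the member interval, which rests on 5 hits and sets members apart from neither. CCGGAAG, an ETS-type sequence, was in 5.05% (3.29 to 7.67%) of member windows and 14% (13.5 to 14.6%) of marked coding ones, and GCGCATGCG in 1.52% and 2.56%. GGGCGG follows CpG content and TATAAA follows AT content by their own letters, and a match is no evidence of binding.

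Most genes had 1 member summit. Of the 373, 345 had 1, 24 had 2 and 4 had 3 or more, namely Sox2ot with 6, Mir99ahg with 5, and 3632454L22Rik and A730035I17Rik with 3 each. The 3 summits of A730035I17Rik fell within 977 bp and scored 17.66, 8.075 and 6.204, while 3632454L22Rik had 138.4 at one start and 8.075 and 4.453 at another. A neighbouring summit of any class was within 2 kb of 109 members (26.6%, 22.5 to 31.1%), against 23.7% (22.7 to 24.7%) of summits away from every TSS, 20.7% (20 to 21.3%) of coding promoter summits and 13.8% (11.2 to 16.9%) of lincRNA promoter summits. In 57 of the 109 the neighbour was the higher.

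The limits of the rule are shown by its nearest cases. Just inside the inclusion distance, Gm28172 at 987 bp scored 5.097 and AC140336.1 at 978 bp scored 5.312. Just outside it, summits at Unc45bos at 1006 bp and Dlx1as at 1007 bp scored 20 and 57.97. Just beyond the exclusion distance, Zbtb11os1 was kept with 251.5 at 1003 bp from Zbtb11 and Gm12339 with 120.9 at 1022 bp from Doc2b. Just within it, summits of D630044L22Rik with 49.83 at 1000 bp from A930017K11Rik and of AW046200 with 220.9 at 990 bp from Galnt7 were left out.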

How the data were processed

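Native chromatin of amygdala nuclei, cut with micrococcal nuclease, was immunoprecipitated for H3K4me3 and sequenced. Reads were aligned by the authors with Bowtie (build mm10), handled with SAMtools, and peaks were called with MACS2 2.1.0.20140616 against input (q-value below 0.1, fold enrichment above 1), as their methods and processing notes state. The authors deposited 1 list for both WT mice, 24162 positions of 1 bp with a score that was read as −log10 of the q-value. The file does not name the scale, and the list gives no read counts, so scores could not be related to depth. Library depths are stated in the study's methods and were not used here. Of these, 30 summits outside chromosomes 1 to 19 and X were set aside. Columns of per-sample values without a matching sample numbered 0.

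TSSs were the starts of all transcripts in GENCODE M21 on GRCm38. Scores and CpG ratios were summarised by medians with order-statistic 95% intervals, and shares with 95% Wilson intervals. No p-value is given, because summits of 1 pooled list are not replicates. The code that assigns classes was run on simulated data, where 100% of 8000 simulated summits were placed as by direct comparison with every TSS. This checks the search by distance only, not whether members are noncoding promoters. RefSeq (GRCm38.p6) gave sequences, microRNAs and coding starts, and 198 of 373 member symbols matched its promoter table.

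Genes named are the 5 highest per gene type, the 3 lowest, members of the lists given, symbols in os or as (a number may follow), and cases at the limits of the rule, with others marked in the text. Members and lists were chosen with earlier results of these data known. Of the neural noncoding list, none of 6 annotated genes was of the types studied. Python 3.11.15, numpy 2.4.6, pandas 2.3.3, scipy 1.17.1, samtools 1.23.1 and matplotlib 3.10.9 were used.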

Additional observations from a re-analysis of the deposited data

How the results depend on the processing

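With the gene 5′ end as the only TSS there were 593 summits and 561 genes, the median score was 81.41, 45.7% reached the list median, 66.9% lay downstream, 71.5% lay inside a coding gene, 16.4% of eligible genes had a member and the median CpG ratio was 0.554. Fewer TSSs then exclude a summit. An inclusion distance of 500 bp gave 10.9% of eligible genes and 78.8% downstream. An exclusion distance of 2 kb put 39.8% inside coding genes. One of 5 kb left 248 summits of 224 genes, with 11.3% of eligible genes, 79.4% downstream and 33.9% inside coding genes. Keeping only scores at or above the list median left 128 summits of 126 genes, with 4.38% of eligible genes, 38.3% inside coding genes and a CpG ratio of 0.605; score summaries are fixed by that limit and were not recomputed. A CpG window of 250 bp gave 0.521. All other alternatives, among them exclusion by coding TSSs only, by every other gene type, by RefSeq coding starts or by RefSeq mRNA starts (added after the data were seen), and joining of summits within 1 kb, left the values within the interval of the main value, or counts within 1.5 times of it. No paired analysis was possible because both WT mice are merged in 1 list, and for that reason no replicate could be left out. Shares and medians carry counting error only, and scores cannot be corrected for depth.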

Other observations

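Scores differed with the style of the gene symbol. The 62 member genes whose symbol is neither a Gm number nor a Riken or BAC clone name had 74 summits. Their median score was 91.24 (59.46 to 124.4), and the group includes symbols made from sequence accessions. The 103 with a Riken clone symbol had a median of 43.28 (27.38 to 79.55). The 190 with a Gm number had a median of 23.62 (17.75 to 32.57), and the 18 named after a BAC clone 38.17 (5.987 to 126.1).

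Members were spread over the genome. They made up 0.882% (0.493 to 1.57%) of summits on chromosome 10 and 2.44% (1.68 to 3.53%) on chromosome 17, the lowest and highest of the 20 chromosomes, and 2.41% (1.55 to 3.73%) on chromosome X. Repeat-masked sequence took up a median of 11.59% (10.39 to 12.99%) of the windows of 500 bp on each side of member summits, against 7.393% (7.293 to 7.493%) at coding promoter summits, 11.09% (10.09 to 12.19%) at lincRNA promoter summits and 12.69% (12.49 to 12.99%) away from every TSS.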
